A study of Mus musculus with 8 samples.

Results

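Cardiac potassium channel genes were measured by RNA-seq in hearts of Carns transgenic mice (TG) and wild-type controls (WT), in 4 libraries per genotype. Carns1 encodes carnosine synthase, which makes histidyl dipeptides such as carnosine, and the study compared heart transcripts with and without the transgene. The labels give tissue and genotype for each sample but no age, sex or strain, nor the promoter or cell type that drives the transgene. Separate animals are not stated for the replicates, so p-values here reflect the spread among samples that may be technical. The set holds 9 genes of repolarizing and inward rectifier channels, chosen by symbol and matched through their NCBI Gene numbers, out of 18215 gene numbers in the deposited tables. All 9 were listed in each of the 8 libraries, and all 9 passed the filter on low counts.

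Potassium channels carry the outward currents that end the cardiac action potential and hold the resting potential. Inward rectifiers (Kcnj genes) pass current near the resting potential, while voltage-gated channels (Kcnd, Kcna and Kcnq genes) open on depolarization, and small cytosolic or membrane partners set their trafficking and gating. In the mouse ventricle the fast transient outward current, carried by Kcnd subunits with Kcnip2, is a main repolarizing current. Acetylcholine-gated channels built of Kcnj3 and Kcnj5 products are best known from atrial and nodal muscle.

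Library totals lay between 6261193 and 7897629 expected counts, the estimated reads per gene. Carns1, the check of the labels, averaged 20812 ± 2454 CPM in TG against 62.6 ± 12.5 CPM for WT (SD, n = 4 each), with no overlap. CPM is the count scaled to the library's total, here with TMM factors. The log2 fold change of Carns1 was 8.38 (adjusted p = 1.07e-10, Benjamini-Hochberg over all genes, edgeR quasi-likelihood test). Heart muscle markers were abundant in all libraries, with a summed level of 6 cardiomyocyte genes between 52999 and 65565 CPM. The sum of 7 atrial markers was uneven, at 88.1 to 925 CPM in TG and 170 to 294 CPM in WT. Most of the sum in each WT library was Nppa, at 143 to 219 CPM. By Myl7 alone, WT replicates 2 and 3 stood at 1.91 and 1.35 CPM, near TG replicates 1 and 3 at 2.87 and 1.81 CPM. TG replicate 2 held the highest sum, with Myl7 at 203 CPM and the adipocyte marker Car3 at 393 CPM. In the other libraries Myl7 lay between 1.35 and 46.8 CPM, Sln was at 0 in TG replicate 3 and WT replicate 2, and Bmp10 was at 0 in all but TG replicate 2.

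Expression of the 9 genes spanned a wide range, led by Kcnip2 and Kcnj11. Kcnip2, the calcium-binding subunit of the transient outward channel, averaged 85.4 FPKM over the 8 libraries, and Kcnj11, the pore of the ATP-sensitive channel, averaged 70.5 FPKM. FPKM is a level per kilobase of transcript, so values can be set beside each other between genes. Levels also moved between libraries with the base composition of transcripts, as described below. How far this enters comparisons between genes was not tested. The ranges of Kcnip2 and Kcnj11 over libraries overlapped, at 66.5 to 105.9 and 63.6 to 81.1 FPKM. Together they made 63.6% to 74.03% of the summed FPKM of the 9 genes in a library. A gap separated them from the next gene, Kcnq1, which averaged 17.7 FPKM and reached at most 21.02. Below it the ranges of neighbours overlapped at every step, from Kcna5 (mean 17.1 FPKM) through Kcnj5 (13.7), Kcnj3 (9.80), Kcnj2 (6.80) and Kcnd2 (2.91) to Kcnd3 (1.505), so the order between neighbours there is not resolved.

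**Figure D1:**
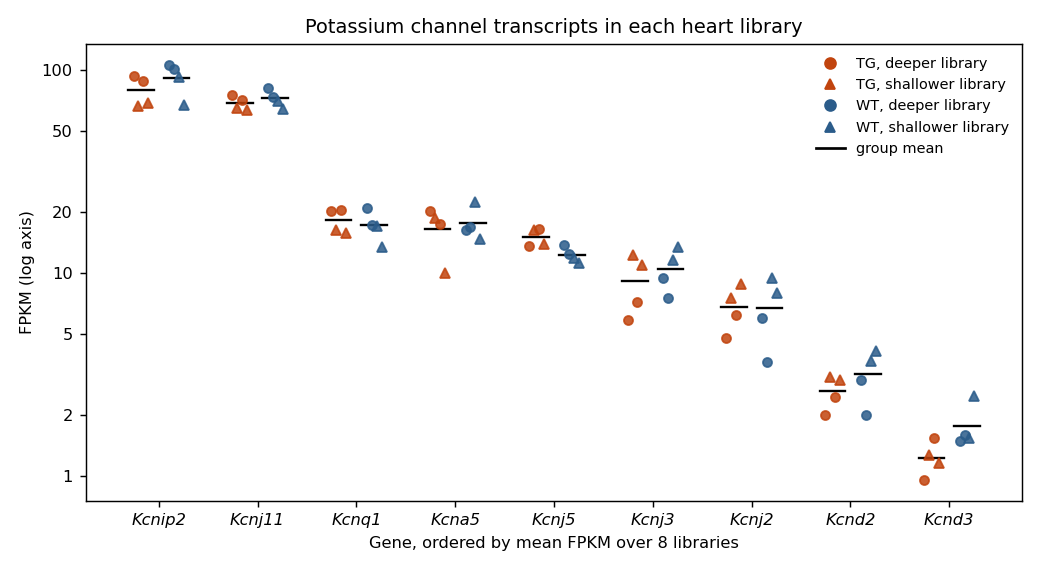
FPKM of the 9 genes in each library on a log axis, with TG in orange and WT in blue, circles for the 4 libraries with the higher totals, triangles for the 4 with the lower totals, and lines for group means. Kcnip2 and Kcnj11 stand above 63 FPKM in every library and no other gene exceeds 22.5 FPKM; for each gene the TG and WT points overlap.

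Promoter sequences were at hand for 7 of the 9 genes, from RefSeq on build GRCm38.p6, each covering 250 bases before to 50 bases after the gene's start. They are shown for Kcnj2, Kcnj3 and Kcnd2, whose levels moved together across the libraries, and for Kcnip2, which moved the opposite way, in lower case from 5′ to 3′ with any match to CACGTG in capitals. Kcnj2 lies at chr11:111065914-111066213 (plus strand), Kcnj3 at chr2:55435720-55436019 (plus strand), Kcnd2 at chr6:21215096-21215395 (plus strand) and Kcnip2 at chr19:45816014-45816313 (minus strand).
Kcnj2: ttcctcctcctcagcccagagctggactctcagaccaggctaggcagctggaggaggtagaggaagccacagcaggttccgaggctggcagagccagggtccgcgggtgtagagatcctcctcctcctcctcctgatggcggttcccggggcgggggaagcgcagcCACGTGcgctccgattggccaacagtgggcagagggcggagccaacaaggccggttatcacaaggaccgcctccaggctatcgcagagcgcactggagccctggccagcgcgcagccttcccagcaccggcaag
Kcnj3: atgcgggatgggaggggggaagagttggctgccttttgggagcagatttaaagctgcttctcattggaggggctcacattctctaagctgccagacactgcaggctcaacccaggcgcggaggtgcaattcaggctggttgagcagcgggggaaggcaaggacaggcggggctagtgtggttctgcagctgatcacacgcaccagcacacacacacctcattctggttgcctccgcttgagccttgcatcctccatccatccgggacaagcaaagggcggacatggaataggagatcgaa
Kcnd2: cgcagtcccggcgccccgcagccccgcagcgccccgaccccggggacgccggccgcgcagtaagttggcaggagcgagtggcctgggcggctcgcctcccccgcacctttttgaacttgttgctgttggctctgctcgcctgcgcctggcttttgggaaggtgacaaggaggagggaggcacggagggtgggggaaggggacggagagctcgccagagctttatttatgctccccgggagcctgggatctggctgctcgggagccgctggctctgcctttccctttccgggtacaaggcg
Kcnip2: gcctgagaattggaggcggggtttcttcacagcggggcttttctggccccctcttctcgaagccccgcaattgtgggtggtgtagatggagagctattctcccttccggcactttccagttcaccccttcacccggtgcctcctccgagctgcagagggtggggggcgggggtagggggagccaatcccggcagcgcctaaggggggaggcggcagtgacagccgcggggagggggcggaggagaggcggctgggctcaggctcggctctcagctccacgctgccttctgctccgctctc

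These windows were rich in G and C. GC content was 66.7% in the Kcnj2 window, 57.7% in that of Kcnj3, 68.7% in that of Kcnd2 and 67.0% in that of Kcnip2, all above the median of 53.0% over 32544 promoters. CG dinucleotides numbered 18, 10, 26 and 18 in these windows against a median of 7. The E-box CACGTG, the site of clock and other basic helix-loop-helix factors, occurred once in the Kcnj2 window and in none of the other 6, while 7.17% of all promoters hold it. Neither the TATA box TATAAA nor ACANNTGT, a site of Iroquois factors such as the Kcnd2 repressor Irx5, occurred in any of the 7 windows, searched on both strands, and these are held by 13.6% and 7.40% of all promoters. CACCC, bound by Kruppel-like factors such as the Kcnip2 regulator Klf15, occurred 4 times in the Kcnip2 window, once each in those of Kcnj2 and Kcnd2 and not in that of Kcnj3, against 57.7% of promoters with at least 1. GGAAA, the core of NFAT sites, occurred 2 times in the Kcnd2 window, once in that of Kcnip2 and not in those of Kcnj2 and Kcnj3, against 61.5% of all promoters.

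None of the 9 genes differed between TG and WT at an adjusted p under 0.05 in edgeR's quasi-likelihood test, where 0.0158% of the 12670 tested genes were called (0.00789% higher and 0.00789% lower in TG). DESeq2 also called none of the 9. In edgeR 1 of the 9, Kcnj5, had an unadjusted p under 0.05, against 3.49% of all tested genes, and in DESeq2 the number was 1 as well. TG and WT values overlapped for all 9, while 2.53% of all tested genes had groups that did not overlap. The median log2 fold change (TG relative to WT) of the 9 was -0.07, with 6 negative and 3 positive, and the median of all tested genes was -0.0017 with 50.5% negative. In simulated counts of the same size, with 200 changed genes in each run, the test recovered 28.9% of 1.5-fold and 83.3% of 2-fold changes. The adjusted threshold is stricter where fewer genes change, and the main comparison called 2 genes, so recovery here may be lower than simulated. Changes below 1.5-fold would mostly be missed at this depth. In this bulk tissue, fewer cells of a type and less RNA per cell cannot be told apart.

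**Figure D2:**
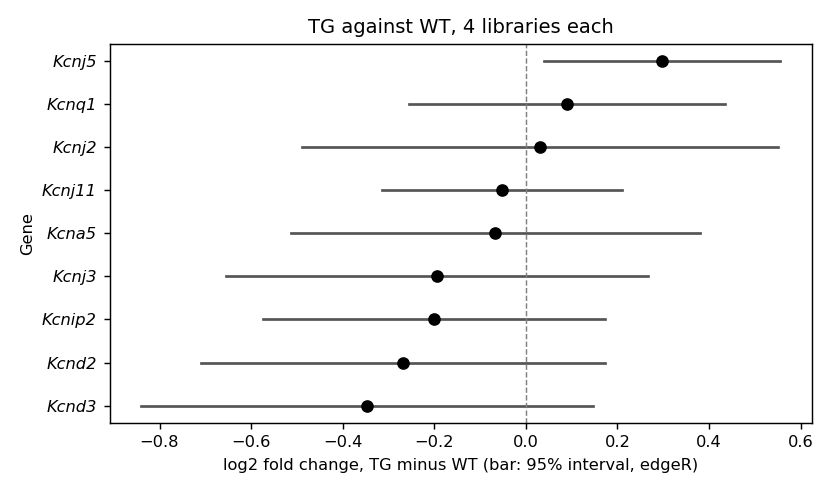
Log2 fold change of each gene, TG minus WT, as a point with its 95% interval from edgeR (4 libraries per group); the dashed line marks no difference. Only the interval of Kcnj5, from 0.04 to 0.55, lies to one side of 0, before any adjustment for the number of genes tested.

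Among the inward rectifiers, Kcnj5 showed the difference with the smallest unadjusted p. Kcnj5 encodes a subunit of the acetylcholine-gated channel that slows the heart on vagal stimulation. It stood at 13.6, 16.2, 16.4 and 13.9 FPKM in TG replicates 1 to 4 and at 13.8, 12.4, 11.9 and 11.2 FPKM in WT replicates 1 to 4. In FPKM, TG libraries sat above WT except that TG replicate 1 lay just below WT replicate 1. In CPM the exception was TG replicate 4, at 61.6 CPM against 62.7 CPM in WT replicate 1. Means were 69.0 ± 7.3 (TG) and 56.1 ± 6.1 CPM (WT) (SD, n = 4 each), a log2 fold change of 0.30 (SE 0.12). The edgeR p was 0.027 unadjusted and 0.99955 after Benjamini-Hochberg adjustment over all genes, so the difference did not pass the test. Without TG replicate 2, TG replicate 3, WT replicate 3 or WT replicate 4 the unadjusted p in edgeR lay between 0.064 and 0.093. The log2 fold change was 0.20 among the 4 libraries with higher totals and 0.40 among the 4 with lower totals. The highest Kcnj5 levels were in TG replicate 3, with the lowest atrial marker sum at 88.1 CPM, and in TG replicate 2, with the highest at 925 CPM; the part of atrial muscle in the difference was not tested.

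Kcnj3, the partner of Kcnj5 in that channel, stood at 5.89, 12.3, 7.24 and 10.98 FPKM in TG replicates 1 to 4 and at 9.42, 7.52, 11.6 and 13.4 FPKM in WT replicates 1 to 4. TG replicates 1 and 3 were lowest and WT replicate 4 highest, and the groups overlapped widely. Its mean was 48.3 ± 15.1 (TG) and 55.2 ± 11.6 CPM (WT), a log2 fold change of -0.19 (95% interval -0.65 to 0.27). TG replicate 2, with the atrial marker sum of 925 CPM, had the highest Kcnj3 level of its group. WT replicate 4 stood above it with an atrial marker sum of 294 CPM. The part of atrial muscle in these levels was not tested.

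Kcnj2 encodes the main pore of the classical inward rectifier current, which holds the resting potential of ventricular muscle. Its levels were 4.80, 7.56, 6.19 and 8.79 FPKM in TG replicates 1 to 4 and 6.0, 3.64, 9.49 and 7.95 FPKM in WT replicates 1 to 4. The lowest and the highest library were both WT. Group means were nearly level at 38.0 ± 8.6 and 37.2 ± 13.1 CPM, with a log2 fold change of 0.03 (95% interval -0.49 to 0.55), and the sign changed when any of TG replicates 2 and 4 and WT replicates 1 and 2 was left out. Of the 9 genes Kcnj2 varied most between libraries, with an SD of 0.43 in log2 CPM over the 8 libraries.

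Kcnj11, the pore of the channel that opens when ATP falls, was the steadiest of the 9. It stood at 75.1, 64.9, 71.4 and 63.6 FPKM in TG replicates 1 to 4 and at 81.1, 73.9, 70.6 and 63.9 FPKM in WT replicates 1 to 4, an SD of 0.16 in log2 CPM. The groups overlapped, with WT replicate 1 above all TG libraries. Its log2 fold change was -0.05, with a 95% interval from -0.31 to 0.21, and lay on the other side of 0 without TG replicate 4 or WT replicate 1 (at most 0.018).

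The genes of the transient outward current had lower means in TG, without passing the test. Kcnd2, the pore-forming subunit that dominates this current in the mouse ventricle, stood at 2.00, 3.07, 2.46 and 2.97 FPKM in TG replicates 1 to 4 and at 2.97, 2.00, 3.70 and 4.14 FPKM in WT replicates 1 to 4. WT replicates 3 and 4 lay above all TG libraries, and WT replicate 2 tied with the lowest. Its log2 fold change was -0.27 (95% interval -0.71 to 0.17).

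Kcnd3, the related pore subunit, was the scarcest of the 9, with 51 to 105 counts per library. Its levels were 0.96, 1.27, 1.54 and 1.16 FPKM in TG replicates 1 to 4 and 1.49, 1.6, 1.54 and 2.48 FPKM in WT replicates 1 to 4. WT replicate 4 stood well above the rest, and its omission moved the log2 fold change from -0.35 (95% interval -0.84 to 0.15) to -0.13. Within the libraries of higher and of lower total it was -0.11 and -0.57. The deposited length of Kcnd3, which weights its 2 listed transcripts by their estimated share, was 6925 ± 301 bases in TG and 6188 ± 321 bases in WT (SD, n = 4 each). This difference did not pass a two-sided exact permutation test (p = 0.057), chosen after the values were seen. FPKM divides by this length, while CPM does not.

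Kcnip2, which brings Kcnd channels to the membrane, stood at 93.1, 66.5, 88.4 and 69.03 FPKM in TG replicates 1 to 4 and at 105.9, 100.6, 92.4 and 67.01 FPKM in WT replicates 1 to 4. TG replicates 2 and 4 and WT replicate 4 formed a low set, with the other libraries well above it. The means were 190 ± 37 (TG) and 218 ± 47 CPM (WT), and the log2 fold change was -0.20 (95% interval -0.57 to 0.17). It was -0.19 within the libraries of higher total and -0.22 within those of lower total.

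Kcna5 encodes the pore of an ultrarapid delayed rectifier current. It stood at 20.2, 18.6, 17.4 and 10.06 FPKM in TG replicates 1 to 4 and at 16.3, 16.8, 22.5 and 14.7 FPKM in WT replicates 1 to 4. TG replicate 4 was the lowest of all libraries and WT replicate 3 the highest. The log2 fold change was -0.07 (95% interval -0.51 to 0.38) and became 0.12 without TG replicate 4 and 0.065 without WT replicate 3.

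Kcnq1, the pore of the slow delayed rectifier, stood at 20.3, 16.3, 20.4 and 15.7 FPKM in TG replicates 1 to 4 and at 21.02, 17.2, 17.1 and 13.5 FPKM in WT replicates 1 to 4. The groups overlapped, with a log2 fold change of 0.09 (95% interval -0.26 to 0.43) that became -0.025 without WT replicate 4. The annotation places the antisense transcript Kcnq1ot1 within this gene, and Kcnq1ot1 had 395 to 570 counts in these libraries. Only the spans of the genes were compared, and whether their exons share sequence was not examined. Whether strand was used in counting was not given in the sources used here, so any shared reads cannot be told apart.

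Levels of 6 of the 9 genes differed between sets of libraries that cut across genotype. A gap in total counts divides the 8 libraries into 4 deeper ones, TG replicates 1 and 3 and WT replicates 1 and 2, and 4 shallower ones, TG replicates 2 and 4 and WT replicates 3 and 4, so each set holds 2 libraries of each group. In an edgeR fit with group and this split together, chosen after the data were seen, 6 of the 9 genes differed between the sets at an adjusted p under 0.05, where 32.2% of all tested genes did. Kcnj2, Kcnj3 and Kcnd2 were lower in the deeper libraries (17.8% of all tested genes were), and Kcnip2, Kcnq1 and Kcnj11 higher (14.4% were). These are differences between sets of libraries and not between genotypes.

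Kcnj3 averaged 40.9 ± 7.4 CPM in the deeper and 62.6 ± 5.0 CPM in the shallower libraries (SD, n = 4 each), with a log2 difference of -0.62 (SE 0.10, edgeR Benjamini-Hochberg adjusted p = 0.0015). Kcnj2 averaged 29.3 ± 6.4 and 45.9 ± 4.8 CPM, a log2 difference of -0.65 (SE 0.14, edgeR adjusted p = 0.0058). In neither gene did the sets overlap. Kcnd2 followed at -0.48 (SE 0.14, edgeR adjusted p = 0.018), with overlapping sets. In the opposite direction Kcnip2 averaged 237 ± 18 CPM in the deeper and 171 ± 30 CPM in the shallower libraries, a log2 difference of 0.47 (SE 0.09, edgeR adjusted p = 0.0033). Kcnq1 and Kcnj11 stood higher in the deeper libraries by 0.40 and 0.29 on the log2 scale (edgeR adjusted p = 0.0073 and 0.0065), and in CPM the sets did not overlap in these 3 genes. For Kcnip2 the gap was narrow, at 216.0 CPM in TG replicate 3 (deeper) and 215.2 CPM in WT replicate 3 (shallower). In FPKM its sets overlapped, with these libraries at 88.4 and 92.4. For Kcnj5, Kcnd3 and Kcna5 the log2 differences were 0.16, -0.15 and 0.18 (edgeR adjusted p = 0.201, 0.615 and 0.482).

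**Figure D3:**
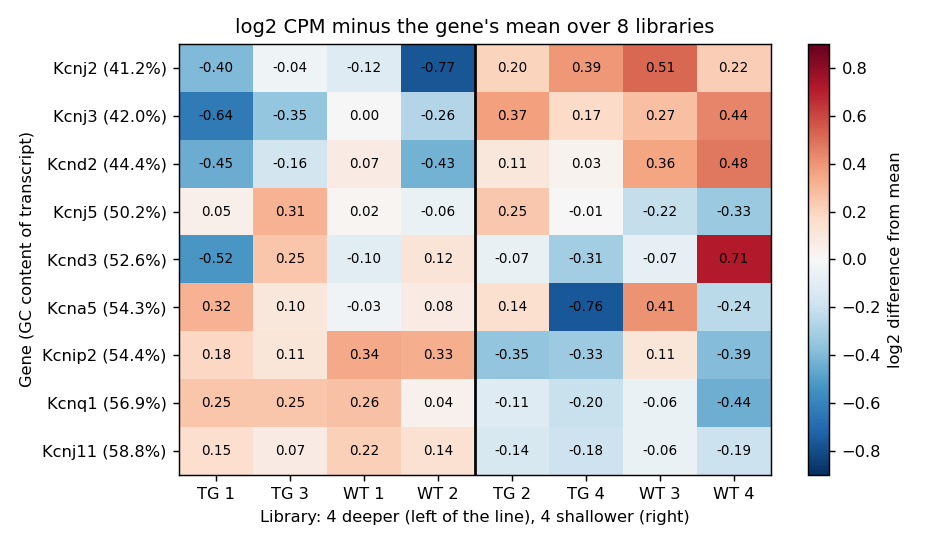
Log2 CPM of each gene minus its mean over the 8 libraries, printed in each cell and coloured from blue (low) to red (high), with genes ordered by the GC content of their transcripts and libraries by depth set. The 3 genes at the top are mostly below their mean in the 4 deeper libraries and above it in the 4 shallower ones, and the 3 at the bottom mostly the reverse.

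For the 6 genes that differed between the sets, the direction went with the base composition of the transcripts. Kcnj2, Kcnj3 and Kcnd2 had the lowest GC contents of the 9, at 41.2%, 42.0% and 44.4%, while Kcnip2, Kcnq1 and Kcnj11 had the highest, at 54.4%, 56.9% and 58.8%. Kcnj5, Kcnd3 and Kcna5, which did not differ at the threshold, lay between at 50.2%, 52.6% and 54.3%. Kcna5 was thus close to Kcnip2 in GC content, with a log2 difference between the sets of 0.18 against 0.47. In the promoters printed above the order differed, with 66.7% GC in the Kcnj2 window, 57.7% in that of Kcnj3, 68.7% in that of Kcnd2 and 67.0% in that of Kcnip2. No promoter was at hand for Kcnq1 and Kcnj11. Over 12555 tested genes with a GC value, the log2 level relative to the mean of all libraries changed with every 10 percentage points of GC by 0.15 to 0.24 in the deeper libraries and by -0.22 to -0.17 in the shallower ones. Of 2567 tested genes under 45% GC, 93.4% were lower in the deeper libraries, with a median log2 difference of -0.45. Of 3940 over 54% GC, 12.8% were lower, with a median of 0.23. These limits were set after the data were seen, and the part of base composition in the levels of single genes was not tested. Some cell type marker sums also separated the sets. The cardiomyocyte sum was 59634 to 65565 CPM in the deeper and 52999 to 55908 CPM in the shallower libraries. The fibroblast sum was 1042 to 1122 and 1249 to 1696 CPM. Ventricle sums were higher and pericyte sums lower in the deeper libraries, without overlap, while the sums of the other marker lists overlapped. Single markers did not all follow their sum. The pericyte marker Rgs5 was at 271 to 306 CPM in the deeper and 447 to 532 CPM in the shallower libraries. Notch3 went the other way, at 130 to 150 and 107 to 129 CPM, and Pdgfrb, Cspg4, Kcnj8 and Abcc9 overlapped. Of the cardiomyocyte markers Myh6, Tnni3 and Actc1 were higher in the deeper libraries without overlap, while Tnnt2, Ryr2 and Actn2 overlapped. The part of cell make-up in the split was not tested. Offsets for GC in each library were an alternative also added after the data were seen. Such offsets take up any difference between libraries that goes with GC, whatever its source. With them the SE of the TG against WT difference went from 0.24 to 0.15 for Kcnj2 and from 0.21 to 0.11 for Kcnj3. It went from 0.21 to 0.19 for Kcna5 and from 0.12 to 0.10 for Kcnj5, and was 0.23 in both fits for Kcnd3. The SEs of the other members fell as well. The log2 fold changes stayed near their values, at 0.036 for Kcnj2, -0.23 for Kcnj3, -0.28 for Kcnd2 and 0.28 for Kcnj5, and none of the 9 passed the threshold (edgeR with Benjamini-Hochberg adjustment, adjusted p = 0.733 for Kcnj5 and 0.805 for Kcnd2).

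The genes most like Kcnj2 over the 8 libraries in log2 CPM were Wdr26, Paxbp1 and Norad, with Pearson r of 0.991, 0.985 and 0.982. Their GC contents of 45.7%, 46.3% and 45.5% were above the 41.2% of Kcnj2 and, like it, below the median of 50.7% over tested genes. They also share the same 8 libraries, so their likeness is given as a description.

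Partner subunits were set beside each other as ratios of FPKM, with 5 ratios chosen after the data were seen. The ratio of Kcnj3 to Kcnj5 was 0.43, 0.76, 0.44 and 0.79 in TG replicates 1 to 4 and 0.69, 0.61, 0.98 and 1.195 in WT replicates 1 to 4. Over all libraries the groups overlapped and the difference did not pass (two-sided exact permutation test, p = 0.200, Benjamini-Hochberg adjusted p = 0.357). Within each depth set both TG libraries lay below both WT libraries, with a mean log2 difference of -0.52. Permuting within the sets gave an exact p of 0.056 (adjusted p = 0.139), the smallest that 36 arrangements allow, so this design cannot pass the threshold. The ratio of Kcnj11 to Abcc9, the sulfonylurea receptor that completes the ATP-sensitive channel, was 1.39 ± 0.25 in TG and 1.68 ± 0.26 in WT and behaved in the same way (exact permutation p = 0.171 over all libraries, adjusted p = 0.357, and 0.056 within sets). Abcc9 is also among the pericyte markers used here, so in bulk tissue this ratio can mix cell types.

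The ratio of Kcnd2 to Kcnd3 was 2.16 ± 0.43 in TG and 1.83 ± 0.49 in WT. Kcnd3 FPKM divides by the deposited length, 6925 bases in TG and 6188 bases in WT, and a greater length raises this ratio. In CPM, which does not divide by length, the means were 12.2 (TG) and 14.7 (WT) for Kcnd2 and 8.78 and 11.2 for Kcnd3. Kcnip2 exceeded the sum of both Kcnd genes 21.4 ± 7.3 times in TG and 19.9 ± 7.8 times in WT. Kcnq1 exceeded Kcne1, its single-span partner in the slow delayed rectifier, 7.05 ± 2.59 times in TG and 8.81 ± 1.73 times in WT. In these 3 ratios the groups overlapped (two-sided exact permutation test over all libraries, p = 0.286, 0.771 and 0.257, adjusted p between 0.357 and 0.771). Within the depth sets TG and WT were not separated in both sets for any of the 3 (exact permutation p = 0.222, 0.667 and 0.222, adjusted p between 0.278 and 0.667).

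**Figure D4:**
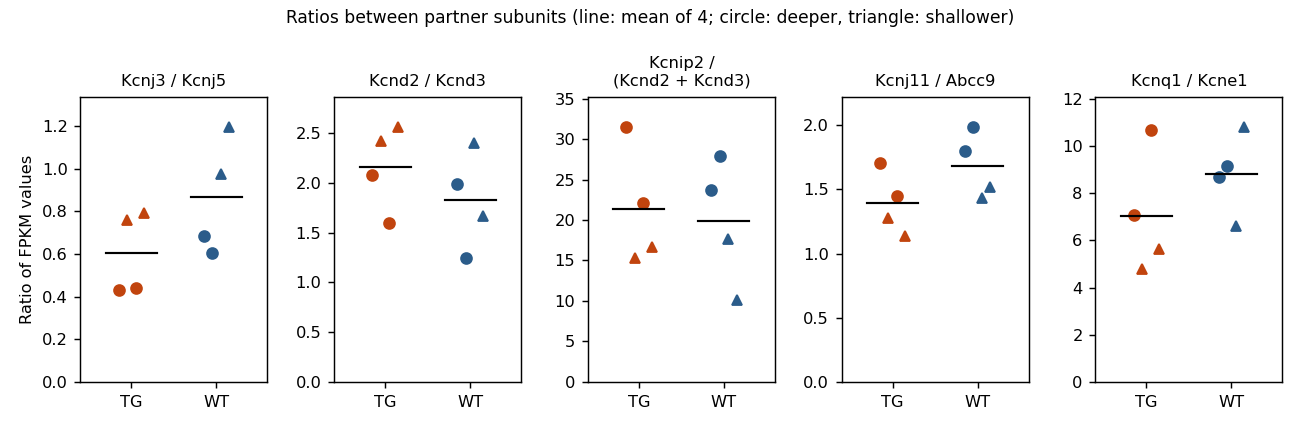
Ratios of FPKM between partner subunits in each library, TG in orange and WT in blue, with circles for deeper and triangles for shallower libraries and lines for the mean of 4; each axis starts at 0. For Kcnj3 over Kcnj5 and Kcnj11 over Abcc9 the TG points lie below the WT points of the same symbol, while the groups as a whole overlap.

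Beyond the 9 genes, 6 lists of related genes were examined, with 67 of 107 members passing the filter. None of the 67 passed the threshold in edgeR in either direction, and 2 had an unadjusted p under 0.05, against 3.49% of all tested genes. By fold change 36 were positive and 31 negative. In 3 the groups did not overlap, against 2.53% of all tested genes.

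Of 16 other inward rectifier and background pores 7 were tested, with a median log2 fold change of -0.10. Kcnk3, an acid-sensitive background channel, was more abundant than any of the 9 genes at 144 FPKM, and stood at 575 ± 55 (TG) and 542 ± 50 CPM (WT). Kcnj8, the vascular pore of ATP-sensitive channels and a pericyte gene, stood at 51.7 ± 4.3 and 60.9 ± 5.3 CPM, a log2 fold change of -0.24 (SE 0.11). Both genes with an unadjusted p under 0.05 belonged here. Kcnj15 stood at 5.52 ± 3.52 (TG) and 2.89 ± 0.84 CPM (WT), and the acid-sensitive Kcnk5 at 1.14 ± 0.42 and 1.93 ± 0.39 CPM (edgeR unadjusted p = 0.037 and 0.045, adjusted p = 0.99955 for both). In Kcnj15 TG replicate 4 stood apart at 10.5 CPM, and without it the log2 fold change went from 0.93 to 0.41. Kcnj12, a further pore of the classical inward rectifier and named here after its values were seen, stood at 65.7 ± 5.9 and 56.2 ± 8.2 CPM (log2 fold change 0.23, SE 0.13).

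Of 31 other voltage-gated and calcium-activated pores 12 were tested, with a median log2 fold change of -0.10. Kcng2, a modifier subunit that is silent alone, stood at 163 ± 20 (TG) and 154 ± 23 CPM (WT). Kcnh2, the pore of the rapid delayed rectifier, stood at 99.8 ± 17.9 and 118 ± 33 CPM, a log2 fold change of -0.24 (SE 0.19). Leaving out WT replicate 1 gave -0.098, WT replicate 2 -0.149, TG replicate 4 -0.158 and WT replicate 3 -0.375. It was -0.35 in the deeper against -0.084 in the shallower libraries. Kcna2 stood at 5.91 ± 1.91 and 3.8 ± 1.18 CPM.

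Accessory subunits were tested for 8 of 20 genes, with a median log2 fold change of 0.12. Abcc9 stood at 378 ± 29 (TG) and 326 ± 33 CPM (WT) (log2 fold change 0.22, SE 0.11), Abcc8, the other sulfonylurea receptor, at 51.3 ± 12.0 and 42.3 ± 10.8 CPM, and Kcne1 at 8.76 ± 1.90 and 6.49 ± 1.95 CPM (SD, n = 4 each). The log2 fold change of Kcne1 was 0.43, and 0.25 without WT replicate 4. Kcnab2, a cytosolic beta subunit, had groups without overlap, at 6.10 (TG) and 7.44 CPM (WT) (log2 fold change -0.29), and is named after its values were seen.

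Scaffolds and trafficking partners were all tested, 10 genes with a median log2 fold change of 0.04. Cav3, the muscle caveolin, stood at 82.5 ± 9.9 (TG) and 89.0 ± 17.3 CPM (WT). Dlg1, a membrane scaffold, stood at 62.6 ± 16.0 and 55.0 ± 12.1 CPM, and the ubiquitin ligase Nedd4l at 35.8 ± 1.2 and 32.9 ± 2.7 CPM.

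Receptors and G proteins that gate the Kcnj3 and Kcnj5 channel gave 16 tested genes with a median log2 fold change of 0.05. Rgs6, which speeds the closing of this channel, stood at 25.1 ± 3.0 (TG) and 20.5 ± 2.7 CPM (WT) (log2 fold change 0.29, SE 0.14, edgeR unadjusted p = 0.058). Gnb5, the G protein beta subunit that binds Rgs6, stood at 35.6 ± 1.5 and 31.4 ± 2.0 CPM without overlap (log2 fold change 0.18, SE 0.11). The abundant Gnai2 and Gng5 stood at 630 ± 74 and 159 ± 7 CPM in the TG libraries, and at 649 ± 70 and 168 ± 22 CPM in the WT libraries.

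Transcription factors known to act on channel genes, 14 tested, had a median log2 fold change of 0.01. Irx5, a repressor of Kcnd2, stood at 15.7 ± 2.3 (TG) and 13.1 ± 1.8 CPM (WT) (log2 fold change 0.25, SE 0.16). Mef2c stood at 47.9 ± 10.7 and 55.6 ± 7.9 CPM, Gata4 at 224 ± 19 and 226 ± 28 CPM, and Nkx2-5 at 143 ± 11 and 145 ± 19 CPM (SD, n = 4 each). The differences of Mef2c, Gata4 and Nkx2-5 were smaller than the SD of either group.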

How the data were processed

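Polyadenylated RNA from mouse heart was sequenced, 4 TG and 4 WT samples grouped by title. The deposited tables, 1 per sample, identify genes by NCBI number and hold expected counts (not normalized) and FPKM values calculated by the authors, per the file headers. Per the submitters' processing notes, Bowtie2 and mm8 are listed, with roles that are not described. A counting program was not given in the sources used here. Genes at 0 are not listed and were taken as 0.

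Gene numbers were matched to symbols in the RefSeq table of GRCm38.p6 (18174 of 18215), used for names and promoters only. GC content came from GENCODE mouse transcripts paired with the listed RefSeq transcripts. Expected counts were rounded. edgeR 4.0.16 (R 4.3.3) was run with filterByExpr (minimum count 10, total 15), TMM scaling, a quasi-likelihood F-test on group, and Benjamini-Hochberg adjustment over 12670 genes at 0.05. SE is the absolute log2 fold change over the square root of F, and intervals are 95%. A level of 3 counts in a library is 0.380 to 0.479 CPM, which covers counting error only. Alternatives used DESeq2 1.42.0 and limma 3.58.1, and exact permutation tests scipy 1.17.1.

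The 9 genes, the lists and the tests were chosen with earlier results of these data known. Named genes were all 9 and, of each other list, the 2 with the smallest p and the 2 with the highest mean FPKM. Some genes that this rule names are not reported here. The fit was tested on simulated counts over 12670 genes with 200 changed genes in each of 3 runs. No replicate pair agreed within sampling noise (smallest chi-square per degree of freedom 4.29).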

Additional observations from a re-analysis of the deposited data

How the results depend on the processing

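None of the 9 genes was called in any of the 20 alternatives, with Benjamini-Hochberg adjusted p between 0.332 and 1 (Kcnj5 with the depth set as a covariate had the lowest). In 169 of 180 comparisons the direction was kept, always so for Kcnj3 (log2 fold change -0.37 to -0.039), Kcnj5 (0.20 to 0.40), Kcnd2 (-0.42 to -0.14), Kcnd3 (-0.57 to -0.11) and Kcnip2 (-0.34 to -0.12). Leaving out 1 library each, Kcnj2 ran from -0.16 to 0.23, Kcnj11 from -0.12 to 0.018, Kcna5 from -0.19 to 0.12, Kcnq1 from -0.025 to 0.20, Gata4 from -0.068 to 0.057, Gnai2 from -0.11 to 0.018 and Nkx2-5 from -0.090 to 0.039. In the shallower libraries alone Kcnj2 was -0.074, Gata4 0.053 and Nkx2-5 0.056, in the deeper alone Kcna5 was 0.19, and with GC offsets Gata4 and Nkx2-5 were 0.036 and 0.089. The cause of these sign changes was not tested.

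Genes called numbered 2 of all tested in the main comparison, 15 with DESeq2, 4 with no filter on low counts, 1 with limma at either pseudocount (1 or 0.1 added to FPKM before the log2), 5 with voom and sample weights, 0 without the Carns1 reads (441 at an unadjusted p under 0.05), 28 with the depth set as a covariate, 7 with GC offsets, and 59 and 4 in the deeper and the shallower libraries alone. Leaving out 1 library gave 1 to 3. With the replicate number as a block the count was 1, and the block changed no call among the 9. Same-numbered TG and WT libraries deviated from their group means with correlations of 0.24, -0.28, -0.18 and 0.40, so the numbers were not taken as pairs. The number of members with groups that did not overlap was 0 on FPKM and on CPM. Kcnd3 and Kcnd2 had the lowest counts of the 9, at 51 to 120 per library.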
